A study of Mus musculus with 9 samples.

Results

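Transcripts of 8 chemokine genes were followed in CD4+ T cells from the lymph nodes of male C57BL/6 mice that lacked or retained Kdm6a in these cells. The genes were Ccl3, Ccl4, Ccl5, Ccl22, Ccl1, Ccl20, Cxcl10 and Xcl1, taken by symbol as chemokines that CD4 T cells can make, and all 8 were among the 39017 genes of the deposited count table. The 4 cKO samples (replicates 2, 6, 7 and 8) came from males that carried floxed Kdm6a (1 copy, X-linked) and CD4-Cre, and the 5 WT samples (replicates 1, 3, 4, 5 and 9) from males with the same allele and no Cre. Kdm6a encodes a demethylase of lysine 27 of histone H3, and CD4-Cre acts in any cell with Cd4 promoter activity, which includes thymocytes that go on to become CD8 T cells. Neither the ages of the mice nor whether each sample came from its own mouse was stated, so the p-values reflect sample-to-sample spread, part of which may be technical. The sample labels give no culture or stimulation step, but the deposited table carries "stim" in its name, so whether the cells had been stimulated is not settled, and every level below depends on it.

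Chemokines are small secreted proteins that bind G protein-coupled receptors and draw cells along a gradient. T cells that meet antigen switch on several of their genes within hours, through NF-kB, NFAT and AP-1 factors, and the set that is made differs between helper lineages. Ccl3, Ccl4 and Ccl5 encode inflammatory chemokines, Ccl22 a ligand of CCR4, Ccl1 the ligand of CCR8, Ccl20 the ligand of CCR6, Cxcl10 an interferon-induced ligand of CXCR3, and Xcl1 the ligand of XCR1, a receptor of cross-presenting dendritic cells.

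Kdm6a did not overlap between the genotypes and was lower in cKO, at 41.8, 42.7, 41.5 and 44.8 CPM (counts scaled to a common library total) in cKO samples 2, 6, 7 and 8, against 62.4, 60.04, 63.8, 63.4 and 63.8 CPM in WT samples 1, 3, 4, 5 and 9. Its log2 fold change was -0.55 (SE 0.04, edgeR adjusted p = 2.89e-05), and the counts cover the whole gene, including exons outside the deleted part. Cd4 averaged 957 CPM ± 43.6 (SD, n = 4) in cKO samples and 873 CPM ± 35.6 (SD, n = 5) in WT samples, a difference that passed the test (log2 0.13, edgeR adjusted p = 0.0480). Of the 6 CD4 T cell markers listed, 1 was called higher and 2 lower in cKO, with a median log2 change of -0.08. The same test called 15.8% of all genes tested in either direction. The lower ones were the CD3 chain genes Cd3d, at 161 CPM in cKO and 183 CPM in WT (log2 -0.19, adjusted p = 0.0476), and Cd3g, at 154 CPM in cKO and 180.2 CPM in WT (log2 -0.23, adjusted p = 0.0311). Each of these 3 calls was lost in 7 of the 9 fits that left out 1 sample. Total counts ran from 20587482 to 26387488 per sample. Mitochondrial genes, whose share can reflect cell and RNA quality, took 2.42 to 2.72% of counts in cKO samples and 2.31 to 2.46% in WT samples.

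The sequence upstream of 3 of the genes is shown because the Ccl20 and Xcl1 values lay in opposite directions between the genotypes, and Cxcl10 was the member with the most matches to these motifs. Each line holds 250 bases before and 50 after the start of the gene on its own strand, 5′ to 3′, from RefSeq on GRCm38.p6, and capitals mark matches to the NF-kB letters GGGNNNNNCC, the AP-1 letters TGANTCA and the interferon-stimulated response element (ISRE) letters GAAANNGAAA on either strand. The Ccl20 window is chr1:83116516-83116815 on the plus strand, the Xcl1 window chr1:164935473-164935772 on the minus strand and the Cxcl10 window chr5:92348840-92349139 on the minus strand.
Ccl20: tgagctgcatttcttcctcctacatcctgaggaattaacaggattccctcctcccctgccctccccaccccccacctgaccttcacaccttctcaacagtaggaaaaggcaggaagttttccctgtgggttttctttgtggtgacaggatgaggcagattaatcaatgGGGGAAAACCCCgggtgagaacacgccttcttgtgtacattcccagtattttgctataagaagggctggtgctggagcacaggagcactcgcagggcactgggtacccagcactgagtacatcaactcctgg
Xcl1: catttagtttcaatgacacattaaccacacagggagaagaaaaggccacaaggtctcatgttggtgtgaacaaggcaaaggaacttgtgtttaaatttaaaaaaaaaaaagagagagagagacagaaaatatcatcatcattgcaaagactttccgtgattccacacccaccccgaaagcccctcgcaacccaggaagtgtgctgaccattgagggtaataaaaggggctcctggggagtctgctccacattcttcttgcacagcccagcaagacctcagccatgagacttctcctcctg
Cxcl10: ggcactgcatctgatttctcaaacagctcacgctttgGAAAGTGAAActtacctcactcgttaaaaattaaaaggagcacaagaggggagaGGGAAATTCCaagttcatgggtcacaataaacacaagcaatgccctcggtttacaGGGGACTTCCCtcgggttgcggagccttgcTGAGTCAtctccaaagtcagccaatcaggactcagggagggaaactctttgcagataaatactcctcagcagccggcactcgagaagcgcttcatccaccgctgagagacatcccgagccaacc

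The Ccl20 window held 4 overlapping NF-kB matches in 1 stretch that starts 82 bases before the start of the gene. The Cxcl10 window held 4 NF-kB matches, 3 of which overlap, with 1 AP-1 and 1 ISRE match, while the Xcl1 window held none of these. In the Ccl20 and the Cxcl10 window, the same bases matched the NF-kB letters on both strands and were counted once for each strand, so these matches are not all separate sites. Of the 6 members with a window in the table, Ccl22 and Ccl1 each had 2 NF-kB matches, which overlap in Ccl1, and Ccl3 had none. Ccl4 and Ccl5 had no entry. The TATA box letters TATAAA were in none of the 6 windows. Among 32851 promoter windows of this length, 50.8% held the NF-kB letters, 7.81% the AP-1 letters, 3.44% the ISRE letters and 13.6% the TATA letters, so a single NF-kB match is common. The NFAT core letters GGAAA were in 61.3% of all windows and in 5 of the 6, the exception being Ccl22. Some NFAT core matches lie inside NF-kB matches. Any link between these matches and the direction of a gene's values was not tested.

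All 8 transcripts were rare. Per kilobase of exon, the mean over the 9 samples was highest for Ccl4, at 4.17 CPM per kb (from 1.74 to 9.10), followed by Ccl3 at 3.18 (from 1.04 to 6.27), Ccl5 at 1.96, Ccl22 at 1.56, Xcl1 at 0.911, Cxcl10 at 0.624, Ccl20 at 0.275 and Ccl1 at 0.0797. Each gene's range over samples overlapped that of its neighbour in this order, and the order of the lower genes differed between genotypes. In cKO the mean of Ccl1 (0.118) was above that of Ccl20 (0.0903), and in WT that of Cxcl10 (0.556) was above that of Xcl1 (0.544). Ccl3, Ccl4, Ccl5, Ccl22 and Cxcl10 passed the count filter and were tested. Their mean levels sat between the 13.5th and the 24.0th percentile of the 14693 genes tested. Ccl1, Ccl20 and Xcl1 did not pass it, with 40, 86 and 100 reads over all 9 samples. The filter asked for about 0.429 CPM in at least 4 samples. Summed over all 8 genes, the level was 9.99 to 19.5 CPM in cKO samples and 9.07 to 18.9 CPM in WT samples.

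**Figure D1:**
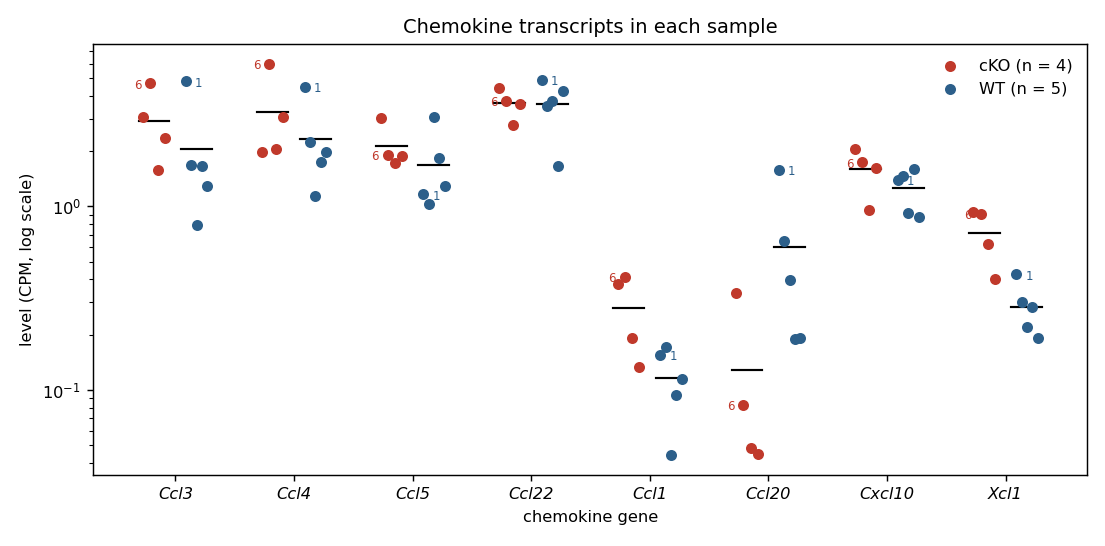
Level of each chemokine gene in CPM on a log axis, with 1 point per sample, cKO in red left of WT in blue, and a black line at the arithmetic mean of each genotype. The points of WT 1 and cKO 6 carry their replicate number. Ccl3, Ccl4, Ccl5, Ccl22 and Cxcl10 overlap widely between genotypes, while Xcl1 has 3 of 4 cKO points above all WT points.

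None of the 5 tested chemokines passed the test between the genotypes. The test was edgeR's quasi-likelihood F test over all 14693 genes with Benjamini-Hochberg adjustment at 0.05, and it called 0 members higher and 0 lower, where it called 15.8% of all genes tested in either direction. At unadjusted p under 0.05 it also had 0 members, against 31.1% of all genes. DESeq2 and limma-voom called 0 of the 5 as well, against 17.3% and 15.6% of the same genes. In 0 of the 5 were the genotypes' values free of overlap, as they were for 15.9% of genes. All 5 log2 fold changes of cKO over WT were above 0, with a median of 0.36, beside 0.0012 for all genes tested. The Ccl22 value, 0.01, was below 0 in some settings that left out 1 sample.

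**Figure D2:**
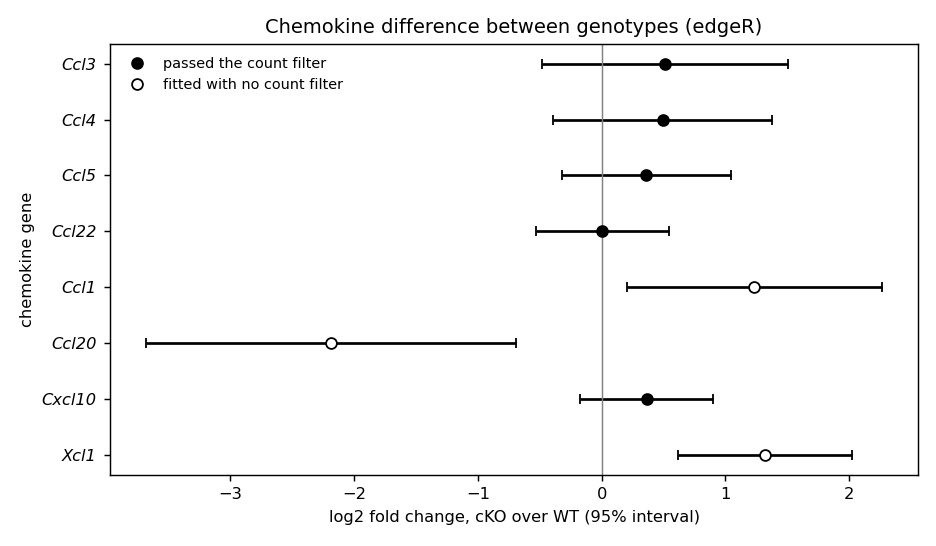
Log2 fold change of cKO over WT from edgeR with its 95% interval for each chemokine gene. Filled points passed the count filter and all 5 intervals span 0. Open points come from a fit with no count filter, in which the intervals of Ccl1 and Xcl1 lie above 0 and that of Ccl20 below 0. That fit gave narrower intervals for the 5 filled genes, so open and filled points are not directly comparable.

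Ccl3 and Ccl4, which encode the inflammatory chemokines MIP-1 alpha and MIP-1 beta, varied widely between samples of the same genotype and in most samples did so together. Ccl3 was at 3.08, 4.68, 1.58 and 2.37 CPM in cKO samples 2, 6, 7 and 8, against 4.81, 1.67, 0.794, 1.65 and 1.30 CPM in WT samples 1, 3, 4, 5 and 9. WT 1 held the highest value of all 9 samples, so the genotypes overlapped over nearly the whole range. Ccl4 was at 1.98, 6.01, 2.06 and 3.09 CPM in the cKO samples in the same order, against 4.50, 2.23, 1.15, 1.75 and 1.99 CPM in the WT samples. Here cKO 6 was highest and WT 1 next, and WT 4 was lowest for both genes. The genes parted in cKO 2, where Ccl3 was above its mean log2 CPM over the 9 samples and Ccl4 was the lowest of the cKO samples. The fold of cKO over WT was 1.42 for Ccl3 (95% interval 0.715 to 2.84, adjusted p = 0.479) and 1.41 for Ccl4 (95% interval 0.763 to 2.60, adjusted p = 0.440). These intervals, which are not adjusted for the number of genes, span both a decrease and more than a doubling, so the data do not show that the genotypes were alike.

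The Ccl3 result rested on WT 1. Without that sample its log2 fold change was 1.12 (SE 0.33, edgeR adjusted p = 0.0343), so Ccl3 was then called higher in cKO, as were 9.34% of the genes tested without WT 1. Ccl4 without WT 1 was at 0.89 (adjusted p = 0.102). Without cKO 6, by contrast, the Ccl3 change was 0.19 and that of Ccl4 0.02. Over 18 genes switched on by T cell activation, the mean centred log2(CPM + 1) was 0.28 in cKO 6 and 0.44 in WT 1, the 2 highest values, and -0.02 to 0.11 in the other cKO samples and -0.40 to -0.04 in the other WT samples. By their summed level WT 1 was again highest, at 8098 CPM, but cKO 6, at 7239 CPM, was below cKO 8 (7483), WT 3 (7428) and WT 9 (7463). The part of these differences in the Ccl3 and Ccl4 values was not tested. Of those 18 genes, 0 passed the test as higher and 1 as lower in cKO, against 15.8% of all genes in either direction. The lower one was the IL-2 receptor chain gene Il2ra (log2 -0.31, SE 0.08, adjusted p = 0.0190). Without WT 1 the same test called 6 of them higher and 2 lower, against 9.34% and 10.8% of all genes. With all 9 samples, 5 had an unadjusted p under 0.05 and were higher, and 4 had one and were lower, against 31.1% of all genes in either direction.

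**Figure D3:**
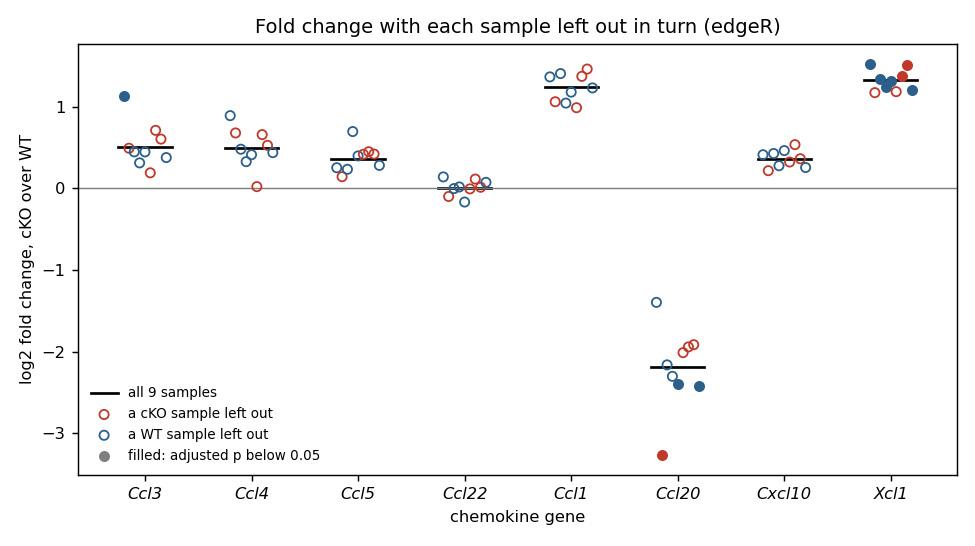
Log2 fold change of cKO over WT from edgeR for each chemokine gene with all 9 samples (black line) and with each sample left out (circles, red for a cKO and blue for a WT sample, filled where the adjusted p is below 0.05). Ccl1, Ccl20 and Xcl1 come from fits with no count filter. Ccl3 is filled only without WT 1, and Xcl1 is filled except without cKO 2 or cKO 6.

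The genes whose pattern over the 9 samples lay closest to that of Ccl3, by the root mean square difference of centred log2 CPM, were Gadd45b at 0.26 and Nr4a2 at 0.27, among 13201 tested genes that averaged 1 CPM or more. Gadd45b encodes a stress-induced signalling protein and Nr4a2 a nuclear receptor induced by activation. For Ccl4 they were Tnfsf14, which encodes the TNF family ligand LIGHT, and Pdgfb, a growth factor gene, both at 0.25. The distance between Ccl3 and Ccl4 themselves was 0.35, while Ccl5 was at 0.998 from Ccl3 and 0.97 from Ccl4. The samples share depth and genotype in these distances, which are a description.

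**Figure D4:**
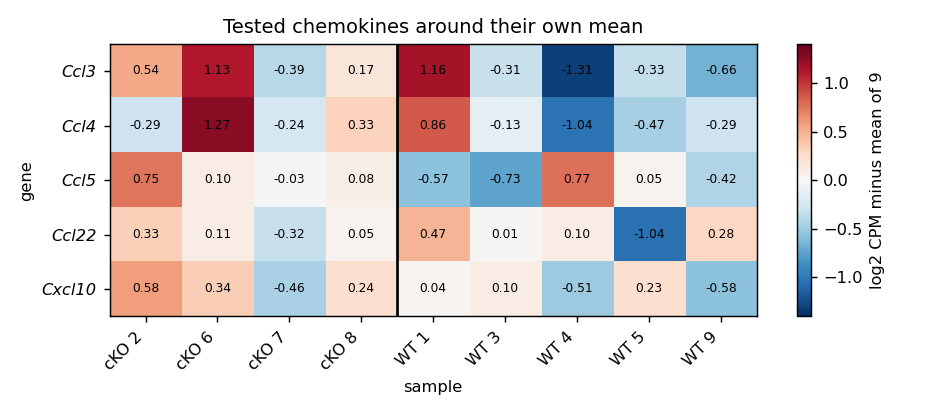
Log2 CPM of the 5 tested chemokines minus each gene's mean over the 9 samples, with cKO samples left of the black line and WT samples right of it. Ccl3 and Ccl4 are high in cKO 6 and WT 1 and lowest in WT 4, but part in cKO 2 (0.54 for Ccl3 and -0.29 for Ccl4). Ccl5 is high in cKO 2 and WT 4.

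Ccl3 and Ccl4 also lie side by side. Ccl3 (ENSMUSG00000000982) runs on the minus strand of chromosome 11 from 83647844 to 83649355 of mm10, and Ccl4 (ENSMUSG00000018930) on the plus strand from 83662584 to 83664683, 13.2 kb apart. Ccl5 (ENSMUSG00000035042) lies on the minus strand of the same chromosome from 83525778 to 83530518, with Ccl9 and Ccl6 between it and Ccl3. Those neighbours were nearly silent, with 25 reads of Ccl9 and 1 of Ccl6 over all 9 samples, against 393 of Ccl5, 522 of Ccl3 and 587 of Ccl4. Elsewhere on the chromosome, Ccl2, Ccl7, Ccl11, Ccl12 and Ccl8, which draw monocytes and eosinophils, had 0 reads in every sample, which allows up to 0.114 to 0.146 CPM per library, while Ccl1 next to them had 40. Counts of genes that differ in exonic length are not levels.

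**Figure D5:**
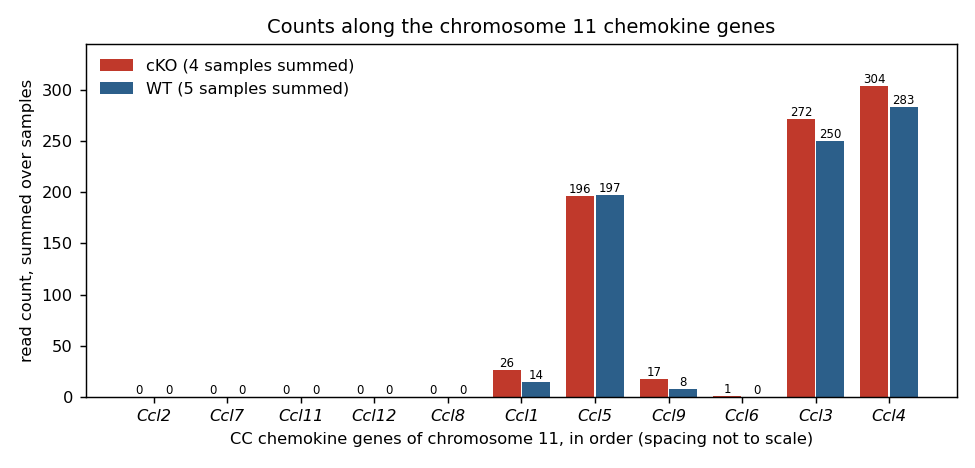
Read counts of the CC chemokine genes of chromosome 11 in their order along it, summed over 4 cKO samples (red) and 5 WT samples (blue), so that bars of the genotypes differ in number of samples. Reads fell almost entirely on Ccl5, Ccl3 and Ccl4, with 26 and 14 on Ccl1.

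Ccl5 encodes RANTES, a chemokine of memory and effector T cells and natural killer cells. It was at 3.04, 1.91, 1.73 and 1.88 CPM in cKO samples 2, 6, 7 and 8, against 1.16, 1.03, 3.09, 1.84 and 1.30 CPM in WT samples 1, 3, 4, 5 and 9. One sample of each genotype, cKO 2 and WT 4, stood above the rest, and the genotypes overlapped. The fold was 1.28 (95% interval 0.800 to 2.06, adjusted p = 0.465), with a log2 change of 0.69 without WT 4 (adjusted p = 0.0905) and 0.14 without cKO 2. The nearest genes in pattern were Ifi213 (distance 0.18) and Ifi214 (0.198), members of a family of interferon-inducible genes whose close sequence could have split reads between them.

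Ccl22, made by activated T cells and more abundantly by dendritic cells and macrophages, showed the smallest difference. It was at 4.43, 3.77, 2.79 and 3.62 CPM in cKO samples 2, 6, 7 and 8, against 4.88, 3.52, 3.75, 1.65 and 4.28 CPM in WT samples 1, 3, 4, 5 and 9. The cKO values lay inside the WT range, in which WT 5 was lowest. The fold was 1.004 (95% interval 0.692 to 1.46, adjusted p = 0.990). Among its nearest genes in pattern was Bspry, at a distance of 0.27. Ccl22 (ENSMUSG00000031779) lies on the plus strand of chromosome 8 from 94745590 to 94751699.

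Cxcl10, the CXCR3 ligand that interferon induces, was at 2.07, 1.74, 0.960 and 1.61 CPM in cKO samples 2, 6, 7 and 8, against 1.40, 1.46, 0.926, 1.61 and 0.878 CPM in WT samples 1, 3, 4, 5 and 9. The 2 highest values were those of cKO 2 and cKO 6, and the others overlapped. The fold was 1.29 (95% interval 0.885 to 1.87, adjusted p = 0.343). Its nearest genes in pattern were Ciart, a circadian repressor gene, at 0.11 and Errfi1, an inhibitor of EGF receptor signalling, at 0.14. Cxcl10 (ENSMUSG00000034855) lies on the minus strand of chromosome 5 from 92346638 to 92348889, inside the span of Art3 on the other strand. Art3 had 56 reads over all samples against 295 of Cxcl10, and the strand setting of the counting was not stated.

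Spread within a genotype was wide in these genes. The within-genotype SD of log2 CPM was 0.80 for Ccl3, 0.70 for Ccl4, 0.52 for Ccl5, 0.48 for Ccl22 and 0.41 for Cxcl10, against a median of 0.24 over the 1532 tested genes with a mean between 1.40 and 3.63 CPM, the range of the members. The Ccl3 spread exceeded that of 99.5% of those genes, and the Cxcl10 spread exceeded that of 88.8%.

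Xcl1 encodes lymphotactin, the chemokine with a single disulfide bond that natural killer cells and activated CD8 T cells make in quantity. It had 22, 22, 13 and 9 reads in cKO samples 2, 6, 7 and 8, which is 0.928, 0.911, 0.624 and 0.403 CPM, against 11, 7, 5, 6 and 5 reads in WT samples 1, 3, 4, 5 and 9, which is 0.426, 0.301, 0.221, 0.283 and 0.191 CPM. Of the cKO samples only cKO 8 lay inside the WT range, just below WT 1. Xcl1 was under the count filter. In a fit of all 25309 genes with at least 1 read it was 2.50-fold higher in cKO (95% interval 1.53 to 4.06, log2 1.32, SE 0.33, edgeR adjusted p = 0.0180). That fit called 3.67% of genes higher and 4.86% lower. It also gave the tested chemokines smaller SE than the main fit, 0.38 against 0.45 for Ccl3, so its intervals are narrower. DESeq2 with no count filter gave adjusted p = 0.0174, and called higher 7.06% of the 15985 genes that its own filtering left, a smaller base than that of edgeR. With no count filter limma-voom gave adjusted p = 0.0379, and called 783 of 25309 genes higher. The call was lost without cKO 2 (adjusted p = 0.0560) and without cKO 6 (0.0770), with log2 changes of 1.17 and 1.18.

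Natural killer and CD8 T cells make Xcl1 and Ccl5. Of 7 natural killer cell markers only 1, Klrd1, was tested, and it passed the test as higher in cKO. Of the 2 CD8 T cell markers, both tested, Cd8b1 passed as higher. Cd8a did not, at 2.70 CPM in cKO and 1.80 CPM in WT (edgeR adjusted p = 0.217). The same test called 15.8% of all genes in either direction. The summed level of 7 natural killer cell markers was 2.77 to 8.56 CPM in cKO samples and 0.840 to 2.41 CPM in WT samples. Most of it was Klrd1, the CD94 gene that effector T cells also express, at 3.30 CPM ± 1.60 (SD, n = 4) in cKO and 1.10 CPM ± 0.509 (SD, n = 5) in WT (log2 1.61, SE 0.38, edgeR adjusted p = 0.0169). The highest sample was cKO 2, which held 32 reads of the receptor gene Klre1, 18 of Klrb1c and 12 of the adaptor gene Tyrobp, against 0 to 5 reads of each in every other sample. Ncr1, which defines natural killer cells, had 0 to 2 reads in every sample. Fcer1g, another gene of this list and under the count filter, lay the other way without overlap, at 0.192 to 0.268 CPM in cKO samples and 0.301 to 0.426 CPM in WT samples. The CD8 T cell markers Cd8a and Cd8b1 summed to 15.1 to 19.1 CPM in cKO and 11.9 to 15.1 CPM in WT. Cd8b1 was at 14.1 CPM in cKO and 11.6 CPM in WT (log2 0.28, SE 0.08, edgeR adjusted p = 0.0296), and its call was lost without cKO 2, cKO 6, cKO 8, WT 3, WT 5 or WT 9 (adjusted p from 0.0530 to 0.0897). The Klrd1 call was kept whichever sample was left out. The part of natural killer and CD8 T cells in the Xcl1 and Ccl5 values was not tested. In these bulk samples, fewer cells of a type and less RNA per cell cannot be told apart.

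Ccl20, the CCR6 ligand of Th17 cells, pointed the other way. It had 8, 2, 1 and 1 reads in cKO samples 2, 6, 7 and 8, against 41, 15, 9, 4 and 5 in WT samples 1, 3, 4, 5 and 9. The levels were 0.337, 0.0828, 0.0480 and 0.0447 CPM in cKO, against 1.59, 0.644, 0.397, 0.189 and 0.191 CPM in WT. Only cKO 2 overlapped the WT samples, and WT 1 held most of the WT reads, 41 of 74. In the fit with no count filter its log2 change was -2.18 (SE 0.71, edgeR adjusted p = 0.0675), a fold of 0.220 (95% interval 0.0781 to 0.620), so it did not pass. DESeq2 with no count filter called it lower (adjusted p = 0.0400), where it called lower 8.73% of the 15985 genes it kept, and limma-voom did not (0.125). Without WT 1 the log2 change was -1.40 (edgeR adjusted p = 0.165), and without cKO 2 it was -3.27 (0.0221). The fit without cKO 2 called 1265 of 25014 genes lower.

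Ccl1, the ligand of CCR8, which Th2 and regulatory T cells carry, had the fewest reads of the 8 over all samples, although in cKO samples Ccl20 had fewer (12 against 26). It had 9, 10, 4 and 3 reads in cKO samples 2, 6, 7 and 8, against 4, 4, 1, 2 and 3 in WT samples 1, 3, 4, 5 and 9. Its fold with no count filter was 2.35 (95% interval 1.15 to 4.80, log2 1.23, SE 0.49, adjusted p = 0.146), which did not pass. The annotation used here draws Ccl1 (ENSMUSG00000020702) from 82176657 to 82305690 of chromosome 11, far longer than its neighbours, so its reads need not all come from the chemokine transcript. Xcl1 (ENSMUSG00000026573) lies on the minus strand of chromosome 1 from 164931644 to 164935527, and Ccl20 (ENSMUSG00000026166) on the plus strand from 83116766 to 83119167.

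The rest of the chemokine family was mostly silent. Of 30 other ligands, 12 had 0 reads in all samples, 15 had reads but did not pass the count filter, and 3 were tested. None of the 3 was called by edgeR, against 15.8% of all genes in either direction. An unadjusted p under 0.05 was found for 1 of them, Cxcl16, and for 31.1% of all genes. Cxcl16, the membrane-anchored CXCR6 ligand, was at 0.546 CPM in cKO and 0.342 CPM in WT (log2 0.67, SE 0.26, adjusted p = 0.108). Ccl25, the CCR9 ligand of thymus and gut, was at 5.53 CPM ± 0.378 (SD, n = 4) in cKO and 5.26 CPM ± 0.946 (SD, n = 5) in WT (adjusted p = 0.722).

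Receptors of the 8 chemokines gave 1 call. Of 10 receptor genes, 6 were tested, 1 passed as lower and 0 as higher, against 15.8% of all genes in either direction, with a median log2 change of -0.28. Ccr4, the Ccl22 receptor gene, was at 118 CPM ± 19.5 (SD, n = 4) in cKO and 214 CPM ± 46.6 (SD, n = 5) in WT (log2 -0.85, SE 0.16, edgeR adjusted p = 0.00638). The Ccr4 call was kept whichever sample was left out, and without cKO 2 the test called 3 of the receptor genes lower, against 8.12% of all genes. The Cxcl10 receptor gene Cxcr3 was at 4.86 CPM in cKO and 9.43 CPM in WT (adjusted p = 0.0716), and the Ccl20 receptor gene Ccr6 at 11.7 CPM in cKO and 9.41 CPM in WT (0.454). The Ccl1 receptor gene Ccr8 was at 34.9 CPM in cKO and 36.2 CPM in WT (0.903).

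Of 25 transcription factors with known roles at chemokine or effector cytokine genes, 4 rose, 2 fell and 19 did not pass, against 15.8% of all genes called in either direction, with a median of 0.15. Nfatc2, the calcium-dependent factor NFAT1, fell by 0.47 on the log2 scale (SE 0.06, edgeR adjusted p = 0.00107). Jun, an AP-1 subunit, rose by 0.54 (SE 0.13, adjusted p = 0.0166), and Nfkb2, an NF-kB subunit, rose by 0.63 (SE 0.17, adjusted p = 0.0295). The Nfatc2 call was kept whichever sample was left out. The Jun call was lost without cKO 6 (adjusted p = 0.0563), and the Nfkb2 call without cKO 6, cKO 8, WT 3, WT 4, WT 5 or WT 9 (adjusted p from 0.0543 to 0.0962). Without WT 1, 7 of these factors were called higher, against 9.34% of all genes, and without cKO 6 there were 0, against 3.59%. There was 1 without WT 3 (4.73% of all genes), without WT 4 (4.46%) and without WT 9 (4.53%). The other call in the lower direction, Stat4, was lost in 6 of the 9 fits that left out 1 sample. Of 14 tested effector cytokines 1 rose, the macrophage growth factor gene Csf1 (3.70 CPM in cKO and 2.85 CPM in WT, log2 0.38, SE 0.11, adjusted p = 0.0411), 0 fell and 13 did not pass, where the same 15.8% of all genes applies. The Csf1 call was kept only without WT 3 or cKO 7 (adjusted p from 0.0528 to 0.106 in the other 7 settings that left out 1 sample).

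Among the listed markers of other cell types, some were at 0 in all samples, but most had reads. Among 8 macrophage and monocyte markers C1qa was at 0 in all samples, and the list summed to 17.6 to 21.4 CPM in cKO and 14.9 to 19.5 CPM in WT, most of it Csf1r, at 15.5 CPM in cKO and 14.3 CPM in WT, and Cd68, at 3.39 CPM in cKO and 2.76 CPM in WT. Clec9a and Cd209a were at 0 among 8 dendritic cell markers, which summed to 4.42 to 7.76 CPM in cKO and 3.74 to 5.70 CPM in WT, led by Zbtb46 and Fscn1. Zbtb46 was at 2.90 CPM in cKO and 2.45 CPM in WT (edgeR adjusted p = 0.340). Fscn1 was at 2.81 CPM in cKO and 1.80 CPM in WT (edgeR unadjusted p = 0.0192, adjusted p = 0.0887), where 31.1% of all genes had an unadjusted p under 0.05. The neutrophil genes S100a8, S100a9 and Ly6g were at 0, and the 6 genes of that list, led by Cpa3 and Mpo, summed to at most 0.192 CPM in any sample. The 6 B cell markers summed to 2.73 to 4.43 CPM in cKO and 3.31 to 5.29 CPM in WT. Of the 5 tested, 1 was called lower and 4, among them Cd79a, were not called, against 15.8% of all genes in either direction. The lower one was Cd79b (0.911 CPM in cKO and 1.72 CPM in WT, edgeR adjusted p = 0.0104). Ms4a1 of the same list lay the other way, at 0.613 CPM in cKO and 0.319 CPM in WT (unadjusted p = 0.0452, edgeR adjusted p = 0.151). Pecam1, which T cells also express, made up most of the stroma and vessel list, at 97.3 CPM in cKO and 108 CPM in WT, followed by Epcam at 1.43 CPM in cKO and 1.47 CPM in WT. Their part in the chemokine values was not tested.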

How the data were processed

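RNA of 9 samples was sequenced, 4 cKO and 5 WT. The authors deposited raw counts (whole numbers, no normalization) for every gene, in 1 column per sample. Libraries were stranded and mRNA-enriched per the labels' protocols, and the submitters' processing notes name bcl2fastq 2.17 and mm10. For the aligner, counter, strand setting and annotation, the sources used here give nothing.

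Columns were matched to samples by title, and every line named a gene. Symbols were found for 37607 of 39017 IDs. Positions and exonic lengths came from GENCODE M21 (GRCm38, the same assembly as mm10) which may differ from the authors' annotation, and promoters from RefSeq. Counts were tested with edgeR 4.0.16 in R 4.3.3 (quasi-likelihood F test, TMM, filterByExpr, no covariate, two-sided, Benjamini-Hochberg adjusted p below 0.05 over 14693 genes). CPM are counts over TMM-adjusted totals; a prior count of 2 was added before taking log2 CPM. SE is the log2 fold change over the square root of F. A gene at 0 was given a limit of 3 counts per library, which covers counting error only. DESeq2 1.42.0 and limma 3.58.1 were alternatives. The scripts were tested on simulated data.

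The members and lists were chosen with earlier results of these data known. All members were named, and of each other list up to 3 called genes with the smallest adjusted p, or up to 2 with the smallest p where none was called, the 2 most abundant of each marker list and those at 0, and the 2 genes nearest each tested member. Some genes that this rule or the lists hold are not reported here. Ccr6, Ccr8 and Cxcr3 were named as receptors of members, and Klrb1c, Tyrobp, Ncr1, Fcer1g, Ms4a1 and Stat4 after their values were seen.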

Additional observations from a re-analysis of the deposited data

Results flagged for a closer look

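Dixon's ratio, the gap of an extreme CPM value to its nearest value over the range, was examined in 16 groups (8 genes in 2 genotypes). A sample stood far from the others of its genotype in 3, where chance flags about 1 in 20 groups of normal values. The genes were read in the same samples, so the groups are not independent and this rate is only a rough guide. Ccl5 in cKO 2, at 3.04 CPM, lay far above the other cKO samples. Ccl20 in cKO 2, at 0.337 CPM, did so too, on 8 reads against 1 or 2. Ccl3 in WT 1, at 4.81 CPM, lay far above the other WT samples. The sample cKO 2 also held the most reads of natural killer cell markers, and WT 1 had the highest level of activation genes. The part of either in the flagged values was not tested.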

How the results depend on the processing

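With all 9 samples, none of the 5 tested chemokines was called under DESeq2 size factors, upper-quartile scaling, a stricter filter (1 CPM or more in 4 or more samples), DESeq2, limma-voom with or without sample weights, or robust quasi-likelihood. With no count filter 1 was called higher in edgeR, and, in settings chosen after seeing the data, 1 higher and 1 lower in DESeq2 and 1 higher in limma-voom. These were Xcl1 and, in DESeq2, Ccl20. With 1 sample left out, 0 to 1 chemokines were called higher and 0 lower. The called one was Ccl3 without WT 1, or Xcl1 without cKO 8, where it passed the filter (log2 1.52, adjusted p = 0.0126) through 3 cKO samples and 0 WT samples, so only through the genotype where it is high. With no count filter and 1 sample left out, 0 to 2 were called higher and 0 to 1 lower. Ccl20 was then called lower without cKO 2, WT 5 or WT 9 (adjusted p from 0.0221 to 0.0362), where 1265, 1154 and 965 of all genes were called lower. Xcl1 lost its call without cKO 2 or cKO 6. The log2 change of Ccl22, 0.01, ran from -0.169 to 0.139 with 1 sample left out, at -0.101 without cKO 2, -0.00402 without WT 3, -0.169 without WT 5 and -0.00759 without cKO 6, and with no count filter from -0.173 to 0.136, at -0.107, -0.00692, -0.173 and -0.0125 without those samples. Over all genes, the number called higher was 1028 and ran from 531 (without cKO 6) to 1363 with 1 sample left out, at 651 without WT 4, 632 without cKO 8 and 662 without WT 9. The number called lower was 1296 and ran from 732 (without cKO 6) to 1570. With no count filter as well, these ran from 534 to 1367, at 629 without WT 4, 619 without cKO 8 and 682 without WT 9, and from 799 to 1561. The cause of these shifts was not tested. No paired analysis was run. The replicate numbers run over both genotypes together, so they say nothing about pairing, and the labels name no batch. At 1 to 41 reads per sample for Ccl1, Ccl20 and Xcl1, depth limits what can be shown.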
